A study of Mus musculus with 2 samples.

Results

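The miR-29 family was described here across the arrays by all 7 of its mature miRNAs, 3 from the 3p and 4 from the 5p arm of the hairpins, out of 1881 mouse miRNA names on the array. Members were taken by their exact names in the array design and not by a signal threshold, though earlier results of these data were known. They were covered by 18 probes and 210 spots per array, of 4415 miRNA probes. The RNA came from exosomes, the small vesicles that cells shed, collected from the medium of LLC (Lewis lung carcinoma) cultures. LLC is an established line grown from a lung tumour of a mouse. All samples formed 1 group, whose cells had been kept for 24 h in DMEM without serum but with 5 µM cisplatin, a drug that crosslinks DNA. The group had 2 samples from independent experiments, hybridised to an array each. Exosomes of untreated cells were not analysed here. The values therefore describe which family members gave a signal and how closely the arrays matched, and no test between conditions was possible.

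Each miR-29 hairpin is cut by Drosha and Dicer into a duplex, of which the 3p strand is the usual guide loaded into Argonaute. The guide pairs through its seed, bases 2 to 8, with the ends of target mRNAs. The family is best known as a repressor of fibrillar collagens, elastin and other matrix genes in lung and other tissues, and also of DNA methyltransferases. miR-29a-3p, the member in the study's title, is the one that the study set out to load into vesicles to limit collagen I.

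The mature sequences show how many bases the members share. They are RefSeq sequences (GRCm38.p6), matched by name for all 7 members and printed 5′ to 3′ with bases 2 to 8 in capitals; the prefix mmu, for mouse, is dropped afterwards.
mmu-miR-29a-3p: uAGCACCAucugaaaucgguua
mmu-miR-29b-3p: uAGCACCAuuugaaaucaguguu
mmu-miR-29c-3p: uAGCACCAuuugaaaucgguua
mmu-miR-29a-5p: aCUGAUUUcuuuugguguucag
mmu-miR-29b-1-5p: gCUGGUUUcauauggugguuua
mmu-miR-29b-2-5p: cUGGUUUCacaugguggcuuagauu
mmu-miR-29c-5p: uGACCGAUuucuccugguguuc

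The 3 3p members carried the same seed, whereas the 4 5p members had 4 different seeds. Counted from 1 at the 5′ end, miR-29c-3p departed from miR-29a-3p by the single substitution C10U, so 21 of their 22 bases were the same. miR-29b-3p differed from miR-29a-3p by C10U, G18A, U21G and A22U over 22 bases and was 1 base longer. Of the 1608 array names that had a RefSeq sequence, no miRNA outside the family had AGCACCA at bases 2 to 8. The closest was miR-3102-3p, named after its values were seen, which shared bases 2 to 7 and was detected on both arrays. Of the 5p seeds only that of miR-29b-2-5p recurred, in miR-6338, which was detected on neither array.

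The hairpins lie in pairs at separate loci, and they are printed with the 3p arm in capitals because only 3p members of the family were detected. Mir29a (chr6:31062660-31062747, minus strand) and Mir29b-1 (chr6:31063023-31063093, minus strand) are 275 bases apart. Mir29b-2 (chr1:195037040-195037120, plus strand) and Mir29c (chr1:195037547-195037634, plus strand) are 426 bases apart.
Mir29a: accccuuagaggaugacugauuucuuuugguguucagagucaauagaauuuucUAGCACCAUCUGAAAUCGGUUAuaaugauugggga
Mir29b-1: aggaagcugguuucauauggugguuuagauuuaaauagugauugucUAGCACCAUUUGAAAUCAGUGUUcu
Mir29b-2: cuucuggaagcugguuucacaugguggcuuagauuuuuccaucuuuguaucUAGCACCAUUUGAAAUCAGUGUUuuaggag
Mir29c: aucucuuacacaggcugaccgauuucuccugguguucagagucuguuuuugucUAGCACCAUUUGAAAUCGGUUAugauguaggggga
miR-29b-3p is the same sequence from both loci, so its signal cannot be split between Mir29b-1 and Mir29b-2. Only the 5p arms of these hairpins, miR-29b-1-5p and miR-29b-2-5p, could separate them.

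All detected signal of the family lay in the 3p arms. A probe counted as detected when the total signal listed for it was over 3 times its listed error, and a miRNA when at least 1 of its probes was. Of the 7 members, 2 were detected on both arrays, against 10.7% of all miRNAs. On array 1, 3 were detected (16.6% of all miRNAs) and on array 2, 2 (10.7%). By arm, 2 of the 3 3p members were detected on both arrays (9.43% of all 3p names), and 0 of the 4 5p members (9.81% of all 5p names). By probe, 3 of the 18 passed on both arrays (7.7% of all probes), all on the 3p side, while 5 passed on array 1 (12.9%) and 3 on array 2 (7.86%). With 7 members, these shares are a description of the family and not a test. Without array 2, the count of detected members was 3, the third being miR-29c-3p.

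miR-29a-3p had strong and even spots on both of its probes. On the brighter probe, A_54_P2489, the processed intensity ran from 501 through a median of 539.9 to 565 over 15 spots on array 1. On array 2 the same probe ran from 106 through 115 to 131. The other probe, A_54_P2488, gave 102 to 119 with a median of 108 on array 1 (14 spots, after 1 outlier spot was left out) and 16.0 to 27.3 with a median of 23.2 on array 2. The spots of array 1 thus lay wholly above those of array 2 on both probes, and every spot used on either array was well above background by the scanner software's flag. From spot to spot the brighter probe varied with an SD of 0.05 log2 units on array 1 and 0.09 on array 2, and the other with 0.06 and 0.18. Over the 340 probes detected on both arrays the median spot SD was 0.19 and 0.27. Spots repeat a measurement within an array and are not replicates of the exosomes.

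The difference between the arrays was read alike by both miR-29a-3p probes. Averaged over probes, its unscaled log2 level reached 7.91 on array 1 and 5.69 on array 2, a difference of 2.22, or 4.65-fold. The brighter probe gave a log2 difference of 2.20 and the other 2.23, a gap of 0.03. Across the 115 miRNAs with several probes that were all detected on both arrays, the median gap was 0.09 (interquartile range 0.04 to 0.19). The probes differed from each other in log2 brightness by 2.30 on array 1 and by 2.33 on array 2. Less exosome RNA on the array and less miR-29a-3p per exosome cannot be told apart in such samples.

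miR-29b-3p, which shares its seed and most of its targets with miR-29a-3p, rested mainly on a single probe. On A_54_P1012 the 15 spots had intensities of 122 to 161 with a median of 133 on array 1, and of 20.9 to 37.9 with a median of 32.8 on array 2. All 15 were well above background on each array. On A_54_P1011 the spots lay at 8.40 to 16.0 with a median of 13.4 on array 1, and at 0.915 to 8.24 with a median of 3.57 on array 2. The dimmer probe passed on array 1 only, at 4.21 times its error, against 1.32 times on array 2. Its separation between the arrays was bare and depended on the outlier filter: 4 of its 15 spots on array 1 had been left out, 3 of them within the range of the spots kept, and the lowest of the 4 had a log2 intensity of 2.12, inside the range of array 2.

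Averaged over its probes, the unscaled log2 signal of miR-29b-3p was 5.38 for array 1 and 3.34 for array 2, a difference of 2.03. The bright probe alone gave 2.10 and the dim one 1.97. Since the dim probe was not detected on array 2, its difference and the average hold a signal near background. The bright probe, detected on both arrays, gave a ratio of mean intensities of 4.25, against 4.60 and 4.67 on the miR-29a-3p probes.

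miR-29c-3p, from the locus on chromosome 1, stood at the edge of detection. Its probe A_54_P2493 had intensities of 4.69 to 16.4 with a median of 11.3 on array 1, and of -0.359 to 9.23 with a median of 5.02 on array 2. A_54_P2492 had 2.84 to 13.8 with a median of 8.64 on array 1, and -2.36 to 8.67 with a median of 2.77 on array 2. The spots of the arrays overlapped on both probes. On array 1 the first probe reached 3.38 times its error and passed, and the second reached 2.88 times and missed. On array 2 they reached 1.52 and 0.798 times, and neither passed.

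The values behind that call were small. For a dim probe, 3 times the error corresponded to a mean intensity of 8.39 to 8.86 on array 1 and of 8.71 to 9.26 on array 2. The means of the miR-29c-3p probes were 10.1 and 8.45 on array 1 and 4.50 and 2.34 on array 2. Negative-control spots averaged 0.472 ± 2.36 (SD over 1000 spots) on array 1 and 1.37 ± 2.81 on array 2. Among undetected probes of array 1, 0.494% had a mean at least as high as that of A_54_P2492. Undetected probes end at the detection limit, where this probe lay, so that share had to be small and is no measure of signal. On array 2 the corresponding share was 5.70% for A_54_P2493 and higher for A_54_P2492. On array 1 all 30 spots of miR-29c-3p were marked as significantly above background, but only 1 as well above it. On array 2 the numbers were 17 and 0 of 30, where 27.3% of the negative-control spots were also marked as significant. For miR-29c-3p on array 2 these arrays give a limit and not a level.

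Sequence identity and signal can be set side by side for the 3p members. Probe sequences were not analysed here, so how much miR-29a-3p binds to the miR-29c-3p probes through 21 shared bases was not tested. On array 1 the mean intensities were 535 and 108 on the miR-29a-3p probes, 136 and 13.0 on the miR-29b-3p probes, and 10.1 and 8.45 on the miR-29c-3p probes. Because probes differ in brightness, also within a miRNA, these intensities do not rank the members by amount.

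**Figure D1:**
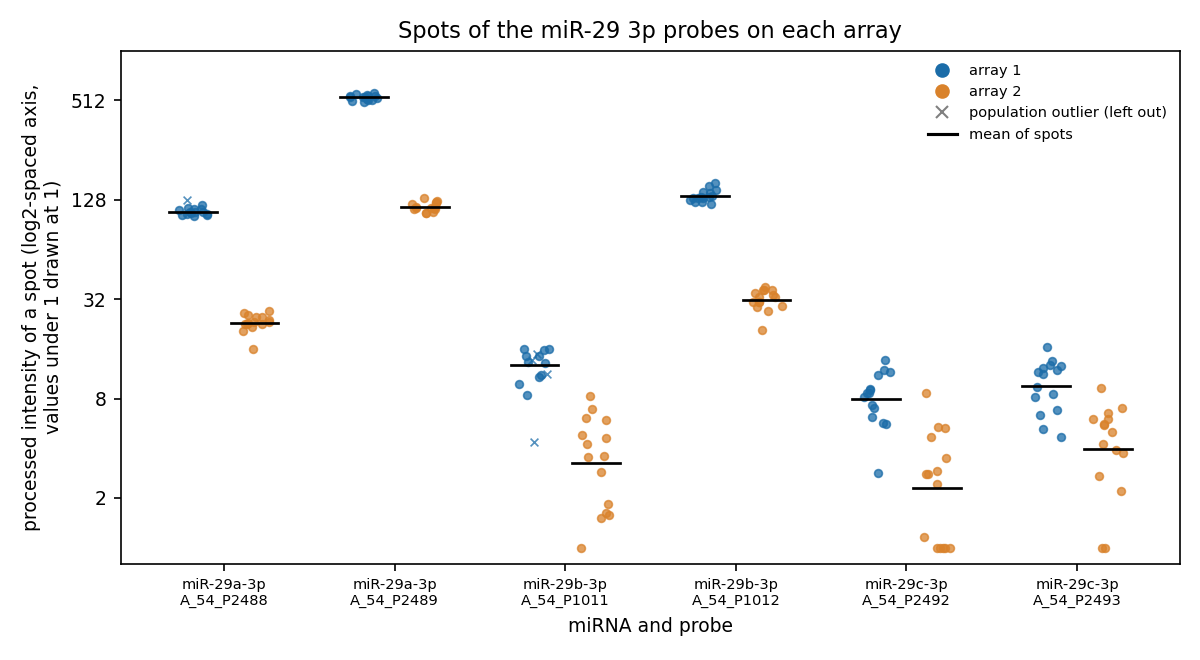
Processed intensity of each spot (log2-spaced axis, values under 1 drawn at 1) for the 6 probes of the 3p members on array 1 (blue) and array 2 (orange), with bars at the mean of log2 intensity and crosses for outlier spots that were left out. The miR-29a-3p spots of the arrays do not overlap, with medians of 539.9 and 115 on the brighter probe, while those of miR-29c-3p overlap on both probes.

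The 5p arms gave no signal that could be told from background. Over their 12 probes the mean intensity ran from -1.16 to 4.79 on array 1 and from -0.398 to 3.86 on array 2, under the level that detection needed. The highest total reached 1.68 times its error on array 1 and 1.31 times on array 2. None of the 115 spots used on array 1 or the 118 on array 2 was well above background. Spots marked as significantly above background made up 24.3% on array 1 and 22.9% on array 2, beside 15.4% and 27.3% of the negative-control spots and 21.1% and 19.9% of the spots of all undetected probes.

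miR-29a-5p, the passenger strand of Mir29a, had probe means of 1.38 to 2.49 on array 1 and 1.46 to 3.86 on array 2 over 4 probes. On 1 of these, A_54_P3460, the outlier filter removed 4 of the 8 spots on array 1. miR-29b-1-5p had the widest spread of the 5p members on array 1, from 0.109 to 4.79 over 4 probes. Its probes A_54_P3267 and A_54_P3268 were the high ones there, at 3.33 and 4.79, and were no longer the highest on array 2, at 0.862 and 0.967 beside 1.22 for A_54_P3266. Even so, 5.75% of the undetected probes on array 1 had a mean at least as high as A_54_P3268. miR-29b-2-5p lay at or below 0 on average, with probe means of -1.16 and -0.668 on array 1 and of -0.362 and -0.398 on array 2. miR-29c-5p had probe means of 1.12 and 2.20 on array 1 and of 1.67 and 1.15 on array 2. Since neither 5p arm of the miR-29b hairpins was detected, the arrays did not show which of the loci supplied miR-29b-3p.

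**Figure D2:**
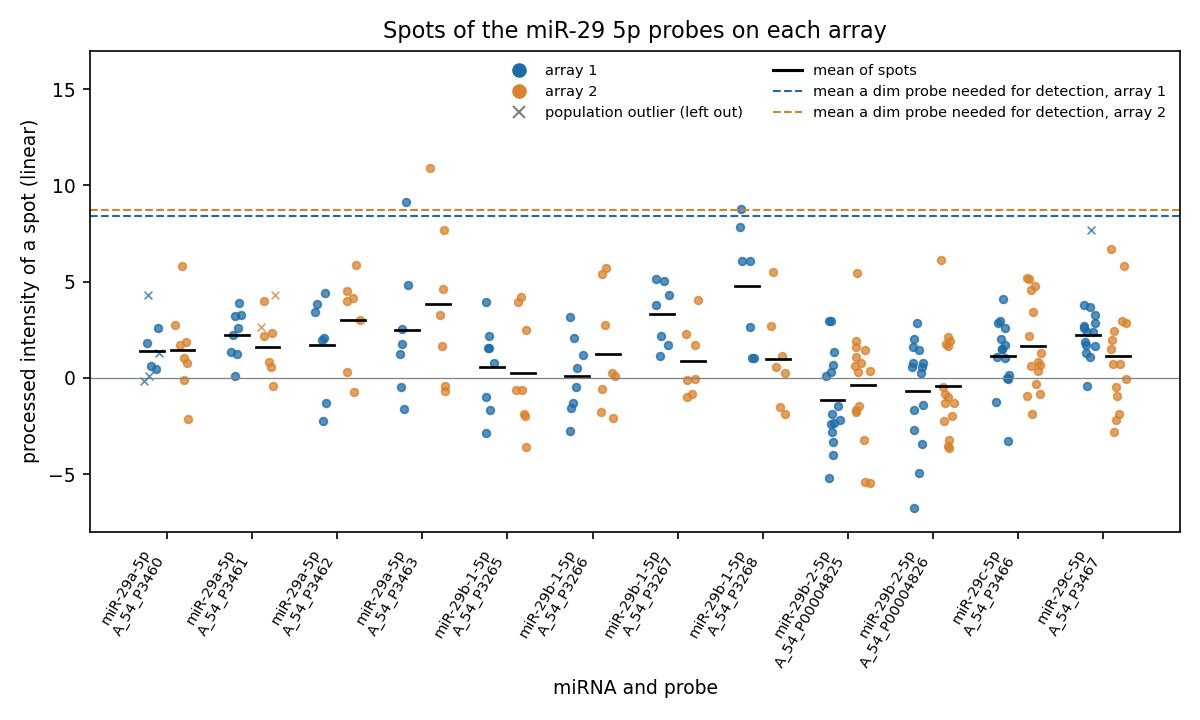
Processed intensity of each spot (linear axis) for the 12 probes of the 5p members on array 1 (blue) and array 2 (orange), with bars at the mean and dashed lines at the median of the mean intensities that undetected probes would have needed, 8.40 on array 1 and 8.73 on array 2. All probe means lie under the lines, the highest being 4.79 for miR-29b-1-5p on array 1.

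The members detected on both arrays were brighter on array 1 by more than most other miRNAs detected on both. Without scaling, the 201 miRNAs detected on both arrays were brighter on array 1 by a median of 0.78 log2 units (interquartile range 0.19 to 1.66). Of these, 42.3% were over 2-fold brighter on array 1, as were miR-29a-3p and miR-29b-3p, and 0.498% were over 2-fold brighter on array 2. Only 11 of the 201 had a larger difference than miR-29a-3p, and 24 a larger one than miR-29b-3p. Differences of that size were not particular to the family: let-7e-5p had 2.32, miR-23a-3p 2.17, miR-19b-3p 2.13 and miR-24-3p 2.12. Others differed less, such as miR-92a-3p (1.11) and miR-30d-5p (0.80). The 4 spike-in controls named in the file headers differed by 0.06 to 0.27. Scaling to the 75th percentile of the detected miRNAs left a difference of 0.50 for miR-29a-3p and 0.32 for miR-29b-3p, still with array 1 above. On that scale the level of miR-29a-3p was 7.05 on array 1 and 6.55 on array 2, and that of miR-29b-3p 4.52 and 4.20, giving 6.80 ± 0.36 and 4.36 ± 0.23 (SD, n = 2).

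For members at background the arrays can show no difference in amount. The unscaled differences of the 5p members were -0.15 for miR-29a-5p, 0.42 for miR-29b-1-5p, -0.12 for miR-29b-2-5p and 0.07 for miR-29c-5p, all from signals near the negative controls. miR-29c-3p, detected on array 1 only, had an unscaled difference of 1.53, and of 2.23 with low signals floored at 0.1 in place of 1. Its sign depended on the scaling: the difference was -0.18 after scaling to the 75th percentile of the detected miRNAs and -0.11 in the authors' deposited table. In 8 of 10 alternatives it was positive, among them 0.58 after quantile normalization and 1.19 with the 75th percentile over all miRNAs.

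The miRNAs nearest to miR-29a-3p in their difference between the arrays were miR-130a-3p (2.22), miR-466h-5p (2.20), miR-6969-5p (2.19), let-7i-5p (2.25) and let-7a-5p (2.26). This likeness spans only 2 arrays, and 12 miRNAs outside the family lay within 0.1 of miR-29a-3p.

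**Figure D3:**
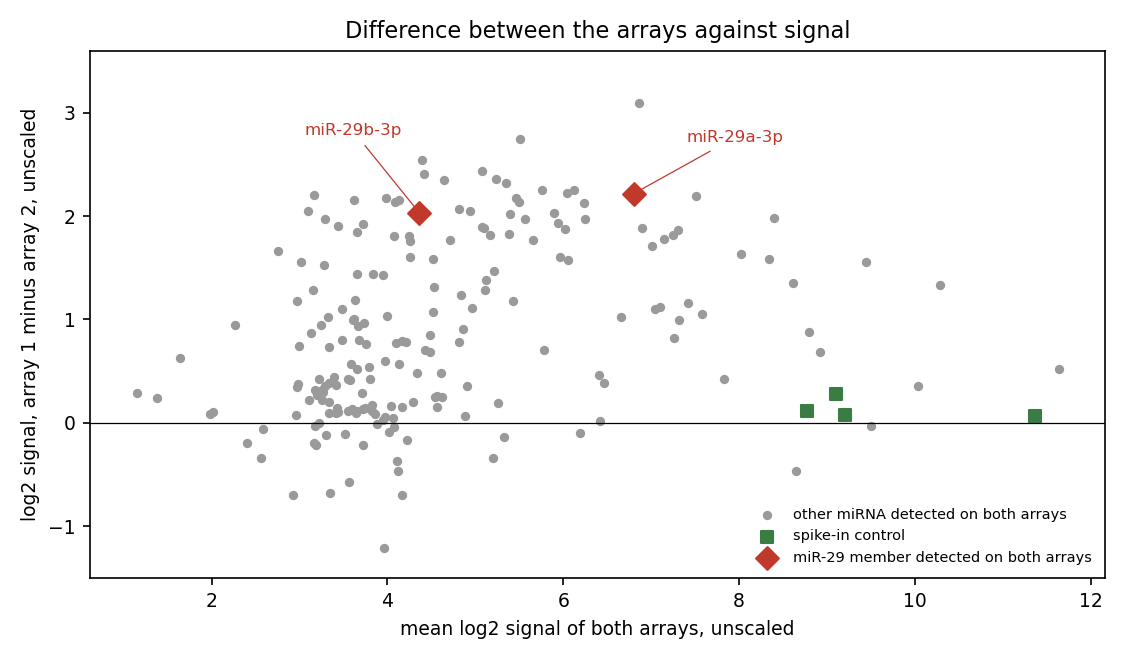
Unscaled difference in log2 signal, array 1 minus array 2, against the mean log2 signal of both arrays for the 201 miRNAs detected on both (grey, with the 2 miR-29 members as red diamonds) and 4 spike-in controls (green squares). miR-29a-3p at 2.22 and miR-29b-3p at 2.03 lie above the median of 0.78, and the spike-in controls lie at 0.06 to 0.27.

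The totals that the scanner files list per miRNA did not match the members' own probes in 2 cases. For miR-29a-3p the listed total equalled the sum of its detected probes on both arrays, 136 on array 1 and 29.6 on array 2. For miR-29b-3p the totals agreed on array 1, both being 31.6. On array 2 the listed total of miR-29b-3p was 36.4, whereas its only detected probe had 6.78, a surplus of 29.6. That surplus equalled the listed total of miR-29a-3p, the detected name just before it in alphabetical order. For miR-29c-3p on array 1 the listed total was 33.7, against 2.14 from its only detected probe. Here the surplus was 31.6, the total of miR-29b-3p. In both cases the first probe of the miRNA was the one not detected.

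Read as listed, the ratio of miR-29b-3p to miR-29a-3p would be 0.232 on array 1 and 1.23 on array 2. From the detected probes of each miRNA alone the ratio was 0.232 on array 1 and 0.229 on array 2. Listed totals would likewise put miR-29b-3p at 0.869 times its array 2 value on array 1, where its own probes gave 4.66 times and those of miR-29a-3p 4.61 times. The 4.66, and likewise 0.232 beside 0.229, set a sum of both miR-29b-3p probes on array 1 against a single probe on array 2. The miR-29b-3p probe detected on both arrays gave the 4.25 above. The listed miR-29c-3p total was 15.7 times what its own probe held and 10.9 times its listed error, against 3.38 times for that probe.

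**Figure D4:**
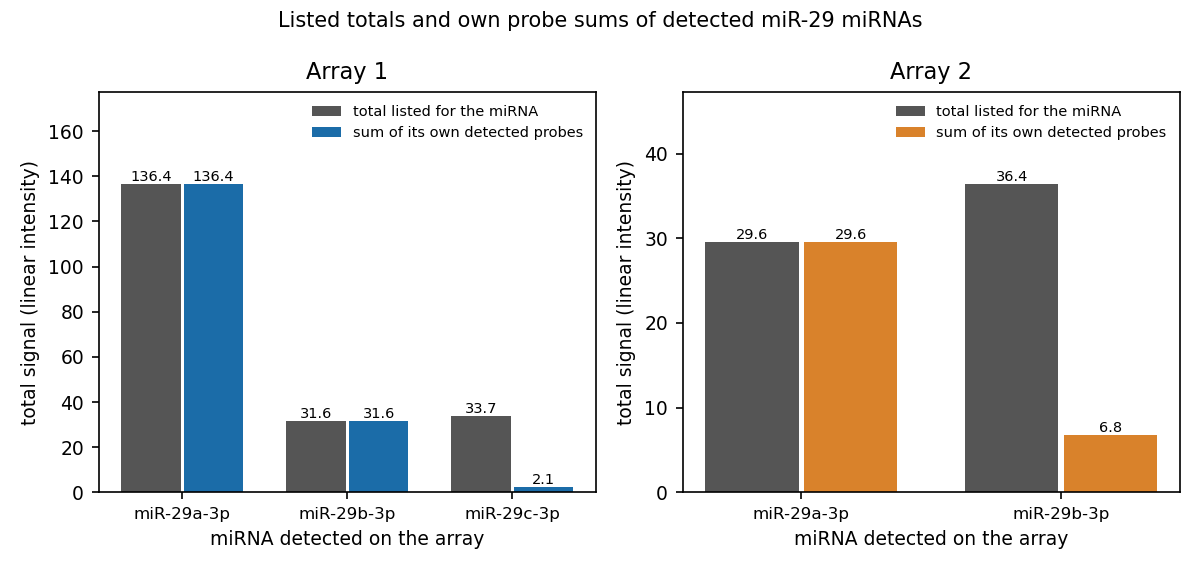
Total signal (linear intensity) listed for each detected miR-29 miRNA (grey) and the sum of its own detected probes (coloured) on array 1 and array 2; the panels have different scales. The bars match for miR-29a-3p, and the listed total exceeds the own sum for miR-29c-3p on array 1 (33.7 against 2.14) and miR-29b-3p on array 2 (36.4 against 6.78).

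The authors' deposited table did not carry these surpluses. It gave log2 values of 6.15 and 5.31 for miR-29a-3p, 4.01 and 3.16 for miR-29b-3p, and -2.22 and -2.11 for miR-29c-3p on arrays 1 and 2. In the authors' deposited table the 4 5p members were all at its lowest value of -3.32, which is also the median of each column. Both columns hold the same set of values, so no array-wide difference in signal can remain in them. How the columns were centred stays unknown. The difference between the arrays shrank there to 0.84 for miR-29a-3p and 0.85 for miR-29b-3p. In the authors' deposited table miR-29c-3p lay above the lowest value on array 2, where it was not detected. In each column 322 of 1902 rows lay above that value, while 202 miRNAs were detected on array 2.

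Other miRNAs tied to collagen and fibrosis gave a mixed picture beside the family. Of 16 listed, 4 were detected on both arrays, beside 10.7% of all miRNAs: miR-21a-5p, which promotes fibrosis, the fibroblast-linked miR-199a-5p and miR-214-3p, and let-7d-5p. Their unscaled differences between the arrays were 1.82, 1.56, 1.75 and 2.36, with array 1 the brighter in each and a median of 1.79, beside 0.78 over all detected miRNAs. On array 1, 7 of the 16 were detected, beside 16.6% of all miRNAs, and on array 2 only these 4, beside 10.7%. The 3 detected on array 1 only were miR-155-5p, miR-30a-5p and miR-26a-5p. The rest of the 16, the muscle miRNAs miR-133a-3p and miR-133b-3p among them, were detected on neither array.

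Markers of cell types were measured on the same arrays. Epithelial miRNAs, those of the miR-200 family together with miR-205-5p and miR-203-3p, were detected on neither array (0 of 7). Over all miRNAs the detected share was 10.7% on both arrays and 16.6% on array 1, so a count of 0 in so short a list is near that share. Their log2 signals reached at most 1.20 on array 1 and 1.43 on array 2. Of 6 fibroblast and smooth muscle miRNAs, which include miR-199a-5p and miR-214-3p of the list above, 4 were detected on both arrays, beside the same 10.7%. These 4 were miR-199a-3p, miR-199a-5p, miR-199b-5p and miR-214-3p, all miR-199 or miR-214 names, so they do not count as independent markers. The brightest, miR-199a-3p, reached a log2 signal of 6.92 on array 1 and 4.88 on array 2, while miR-143-3p and miR-145a-5p were on neither. Summed over this list the signal was 235 on array 1 and 62.1 on array 2. On arrays 1 and 2 the sums were 29.9 and 13.6 for the leukocyte list and 10.2 and 6.78 for the red cell list. They were 7.07 and 3.56 for the endothelial list and 9.96 and 10.6 for the epithelial list. No red cell, endothelial or epithelial miRNA was detected on either array. The sums of these lists add signals near background, floored at 1 per spot, and can show no difference in amount. The leukocyte sums hold such signals too, beside miR-142a-3p. The part of any of these cell types in the miR-29 signal was not tested. Of 4 red cell, 5 leukocyte and 2 endothelial miRNAs, 0 were detected on both arrays and 1, the leukocyte miRNA miR-142a-3p, on array 1, where 16.6% of all miRNAs were detected.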

How the data were processed

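Each exosome RNA sample was hybridised with Cy3 label to 1 Agilent mouse miRNA array. Both arrays shared a slide and scan, per the file headers. The labels' protocols describe a kit for labelled cRNA, whereas the headers name a miRNA protocol. Which was used was not tested.

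The deposited spot intensities are linear and were made by Feature Extraction 10.7.1.1 from Agilent, per the file headers and the submitters' processing notes. They are background-subtracted with spatial detrending and not normalized between arrays. The headers' multiplicative error of 10% keeps bright probes near 10 times their error. The authors' deposited log2 value table served only as an alternative.

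Spots flagged as population outliers were left out. For a level, log2 intensities (floored at 1) were averaged over spots and then over probes. Scaled levels have the array's own upper quartile of miRNAs that both arrays detected (6.29 and 4.58) subtracted and the mean of both quartiles added. Detection followed the files' own flag, which matched the 3-fold error rule for all 1881 names. No spot of the family was saturated. No p-values were computed. Members and lists were chosen with earlier results of these data known. By rule, all members and probes, the 5 miRNAs nearest to miR-29a-3p in array difference, and detected list members are named. Other names were picked after their values were seen.

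The work used R 4.3.3 (limma 3.58.1) and Python 3.11.15 (matplotlib 3.10.9, numpy 2.4.6, pandas 2.3.3, scipy 1.17.1). The Python steps for levels, detection and scaling were tested on 1881 simulated miRNAs, with 4 of 4 checks passed. The simulation held no background or negative signals and left out the normexp step in R.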

Additional observations from a re-analysis of the deposited data

How the results depend on the processing

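With a single group of 2 arrays, the number of arrays limits every value. No paired analysis was possible because there was only 1 group. The detected members numbered 2 under the negative-control rules and 6 times the error, 1 (miR-29a-3p) when most spots had to be well above background, and 3 when detection on at least 1 array was enough. miR-29b-3p missed the well-above-background rule by a tie on array 2, with 15 of its 30 spots passing, all on A_54_P1012. Leaving out each array gave 2 to 3 members and 3 to 5 probes. At 6 times the error 3 probes passed, as with most spots well above background.

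Mean log2 levels of miR-29a-3p and miR-29b-3p were 7.60 and 6.55 after normexp (offset 50), 5.99 and 5.08 from listed totals, 7.96 and 6.03 from the brightest probe, 5.99 and 3.87 from the sum of detected probes, and 5.73 and 3.59 in the authors' deposited table. With only probes detected on both arrays, miR-29b-3p was at 6.03. These alternatives measure other quantities. Leaving out each array gave 5.69 to 7.91 and 3.34 to 5.38, unscaled. SDs depended on the scaling: for miR-29a-3p 0.36 as reported, 1.57 without scaling and 1.33 with the percentile over all miRNAs.

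For miR-29a-3p and miR-29b-3p, array 1 minus array 2 was 1.41 and 0.66 after normexp, whose offset draws low signals together, 1.87 and 1.69 with the percentile over all miRNAs, 0.50 and 0.32 with the percentile over detected miRNAs, 0.73 and 1.13 after quantile normalization, and 0.84 and 0.85 in the authors' deposited table. After normexp the gap between the probes in this difference was 0.72 for miR-29a-3p and 0.90 for miR-29b-3p. Without normexp it was 0.03 and 0.13. The sum of detected probes gave 2.22 for miR-29b-3p. Its sign turned only with the listed totals (-0.20), which hold the surplus of miR-29a-3p. That of miR-29a-3p stayed positive in all 12 alternatives. For miR-29c-3p the difference was -0.18 after scaling to the detected miRNAs and -0.11 in the authors' deposited table, and positive in 8 of its 10 alternatives. A difference without 1 of the arrays could not be given.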
